A study of Caenorhabditis elegans with 10 samples.

Results

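CircRNAs of *lin-1* and *elf-1*, the host genes in the table that encode ETS-domain transcription factors, were described in *Caenorhabditis elegans* adults of wild-type genotype and of a *nova-1* deletion strain. The members were the rows of the circRNA count table whose host gene was *lin-1* or *elf-1*, with the host gene taken from the list of circRNAs that the study gives for its loci. The rule found 3 of 141 loci, of which 2 belonged to *lin-1* and 1 to *elf-1*. Both genes were selected on measured values, because their difference between the genotypes was already known when they were chosen. Their levels in wild-type and mutant worms are therefore given as a description, with no test.

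Total RNA was sequenced from 5 replicates of wild-type strain N2 and 5 of strain VDL1105, which carries the deletion allele *nova-1(tm6146)*. All 10 samples were whole hermaphrodites on day 3 of adulthood, and the RNA therefore pooled all tissues. Worms of both genotypes were grown on *E. coli* OP50 and, from the last larval stage, on 5-fluorodeoxyuridine, which prevents progeny. The mutant strain was outcrossed, and 1 allele was used. CircRNAs were counted at the back-splice junction (BSJ), the join between a downstream splice donor and an upstream splice acceptor that is found in a circle and not in the linear mRNA of the same gene.

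ETS factors bind DNA through a conserved winged helix-turn-helix domain, and many of them are end points of Ras signalling. LIN-1 inhibits vulval cell fates, and phosphorylation by the MAP kinase MPK-1, downstream of LET-60 Ras, relieves that inhibition. The gene name of *elf-1* places it with the ELF group of the family. NOVA proteins are KH-domain RNA-binding proteins that recognise YCAY motifs and regulate splicing. The circles described here were read only as RNA, and their effect on either transcription factor was not measured.

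The *lin-1* circle was a single exon of a gene with a very long intron. *lin-1* (WBGene00002990) lies on the minus strand of chromosome IV from 2275861 to 2300286 (WBcel235/ce11), spans 24426 nt and has 2 annotated transcripts. The circle matched the exon from 2278892 to 2279181, which is 290 nt long. In transcript C37F5.1a.1 it is exon 3 of 6 and coding over its whole length, with an intron of 20948 nt upstream of it and an intron of 412 nt downstream.

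The same exon is the first of 4 exons in the shorter transcript, C37F5.1b.1. There it holds the start codon and 282 coding nt, and it has no upstream intron and so no annotated splice acceptor. A circle of this exon therefore matches the annotated splice sites of the longer transcript alone. Use of an acceptor at the same position in the shorter transcript was not examined. The exon length left a remainder of 2 when divided by 3. No other annotated gene overlapped *lin-1*.

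The *elf-1* circle held 3 coding exons. *elf-1* (WBGene00016029) lies on the plus strand of chromosome III from 689169 to 715822, spans 26654 nt and has 2 annotated transcripts with different first exons. The circle joined exons 2 to 4 of 7, which measure 117, 100 and 183 nt and run from 707153 to 709236. The exons add up to 400 nt, all coding, with a remainder of 1 when divided by 3.

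The intron upstream of the *elf-1* circle depends on the first exon used. It measures 559 nt in C24A1.2a.1 and 17822 nt in C24A1.2b.1, while the downstream intron measures 4047 nt in both. C24A1.5, an ncRNA of the opposite strand, overlaps the circle. The library kit keeps strand, and whether the counting used strand is not given in the sources used here.

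**Figure D1:**
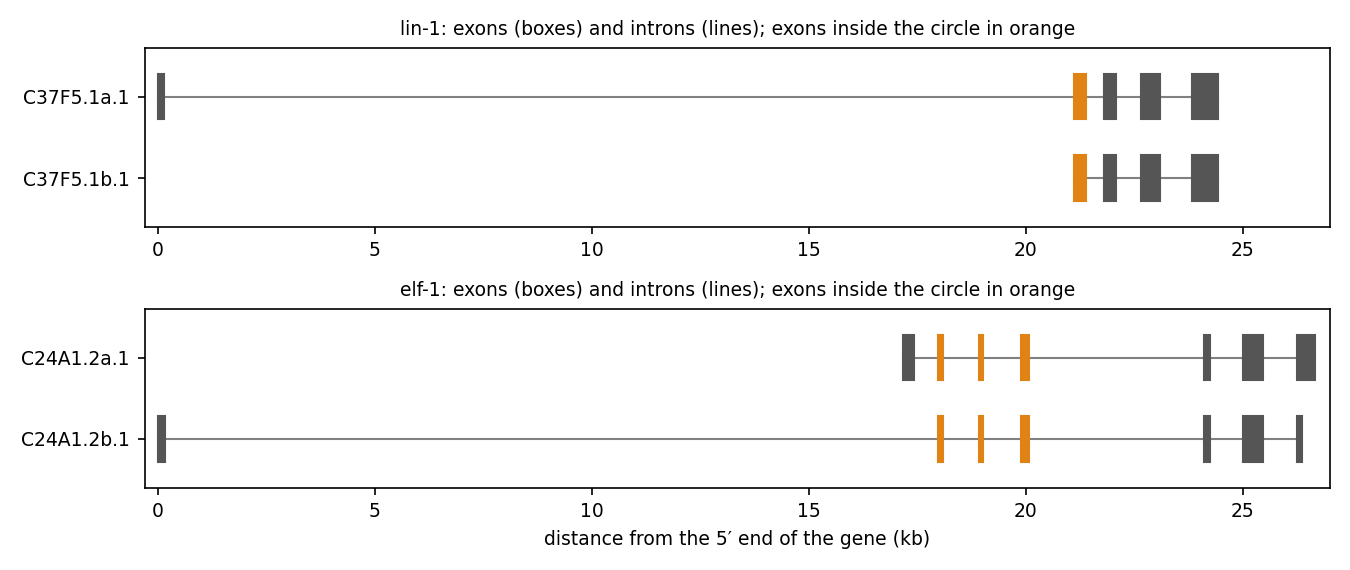
Exon maps of *lin-1* (top) and *elf-1* (bottom), with 1 line for each annotated transcript and the distance from the 5′ end of the gene in kb on the x axis. Boxes are exons, lines are introns and orange boxes are the exons inside the circle. In both genes 1 transcript starts far upstream of the circle, with introns of 20948 nt (*lin-1*) and 17822 nt (*elf-1*) before it, and the other starts at the circle exon (*lin-1*) or with a first exon that is separated from the circle by an intron of 559 nt (*elf-1*).

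A long upstream intron in at least 1 transcript was shared by both genes, and the rule had not used it. Of the 141 loci, 117 matched annotated exon ends after a shift of at most 150 nt, set for each locus separately. Of the matched loci, 110 had an upstream intron. The longest upstream intron of these loci ranged from 56 to 20948 nt, with a median of 1425 nt. The intron of *lin-1* was the longest of all, and that of *elf-1* was exceeded only at the 2 *lin-1* loci.

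The other features of the circles differed between the genes. The downstream intron of *lin-1* was shorter than at 99 of the 117 loci, whereas that of *elf-1* was longer than at 103 of them. The median over the loci was 1564 nt. The *lin-1* circle was shorter than the median of 398 exonic nt, with 92 loci longer, and that of *elf-1* was close to it, with 57 longer. Single-exon circles such as *lin-1* made up 42 of the 117 loci.

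The 2 *lin-1* loci described the same exon and were listed 1 nt apart. The lower-start locus runs from 2278891 to 2279180 in the table and the upper-start locus from 2278892 to 2279181. The first lies 1 nt below the annotated exon at both ends, and the second matches it. Both carried the circRNA name cel_circ_0000491. In 6 cases, *lin-1* included, the table listed the same exons at 2 loci 1 nt apart, and the scaffolds on which reads were counted are 200 nt long. The share of reads that align to both *lin-1* scaffolds was not tested, and the loci are given both separately and summed.

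The *elf-1* locus, cel_circ_0000303, runs from 707147 to 709230 in the table, 6 nt below the annotated exon ends at both ends. Its neighbours on chromosome III were displaced in the same direction, by 1 nt at Y50D7A.1, 6 nt at *pat-12* and 8 nt at *zip-2*. Of the 117 loci that matched exon ends, 88 lay below them, by up to 120 nt, and 12 matched with no shift. The exon coordinates above are those of the annotation, and the table coordinates are given only to identify the loci.

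The counts behind these loci were small. Libraries held 7955 to 15014 BSJ counts in wild-type (median 8594) and 8514 to 9437 in *nova-1* mutants (median 8972) over all 141 loci. Wild-type replicate 1 had the highest total, and its mean rank correlation with the other wild-type libraries was 0.594, against 0.769 to 0.80 for the other 4 and 0.837 to 0.878 among mutants. Values of *elf-1* in wild-type, which depend on it most, are given with and without it, except its ranks by level and log2FC. No locus in the table was hosted by *nova-1*, so the genotype labels were not checked against the deleted gene.

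In wild-type worms *lin-1* circles were found in every library at a low level. The summed counts of the 2 loci were 20, 23, 24, 27 and 17 in replicates 1 to 5. After scaling by TMM (trimmed mean of M-values) to the mean effective library of 9421 counts, the normalized counts were 17.95, 22.9, 28.0, 32.2 and 17.6. The variance of the raw counts was 0.662 times their mean, a ratio that does not allow for unequal library sizes. After scaling, the SD was 6.34 around a mean of 23.7. Whether this spread exceeds counting error was not tested.

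In *nova-1* mutants the *lin-1* circles were more abundant in every library. The summed counts were 66, 60, 70, 35 and 51, or 54.0, 59.9, 62.5, 36.5 and 55.7 normalized counts. The lowest mutant library, replicate 4, was above the highest wild-type library, replicate 4 at 32.2, and the groups did not overlap. Mutant replicate 4 stood below the other 4 mutants, and the variance of the raw mutant counts was 3.45 times their mean. The raw ratios of the genotypes are not compared, because library sizes differ. After scaling, the SD was 19.0% of the mean in mutants and 26.7% in wild-type.

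The mean normalized count of *lin-1* was 23.7 ± 6.34 in wild-type and 53.7 ± 10.2 in *nova-1* mutants (SD, n = 5 each), 2.26-fold higher in the mutants. The fit gave a log2FC of 1.18 with a standard error of 0.263. Without wild-type replicate 1 the wild-type mean was 25.2 ± 6.30 (SD, n = 4) and the log2FC was 1.08. In whole worms, more circle per cell and more of the cells that make it cannot be told apart. Linear *lin-1* and *elf-1* mRNA was not analysed here, so the circles were not set against the output of their genes.

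Both *lin-1* loci were higher in mutants, but only the upper-start locus separated the genotypes. Its counts were 6, 11, 8, 6 and 10 in wild-type and 27, 36, 42, 12 and 20 in mutants. The mean normalized count was 8.64 ± 2.32 in wild-type and 26.0 ± 10.5 in mutants (SD, n = 5 each), 3.01-fold higher, with a log2FC of 1.58 and a standard error of 0.381. Every mutant library was above every wild-type library, and mutant replicate 4 was again the lowest mutant.

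The lower-start locus had the higher wild-type level of the pair and the smaller difference. Its counts were 14, 12, 16, 21 and 7 in wild-type and 39, 24, 28, 23 and 31 in mutants. The mean normalized count was 15.1 ± 6.88 in wild-type and 27.7 ± 4.76 in mutants (SD, n = 5 each), 1.84-fold higher, with a log2FC of 0.89 and a standard error of 0.335. The groups overlapped, since only 2 of the 5 mutant libraries were above the highest wild-type library, replicate 4 at 25.0. Whether the log2FC of the 2 loci differ was not tested.

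*elf-1* circles differed in the opposite direction. The wild-type counts were 34, 8, 5, 10 and 11, or 30.5, 7.97, 5.83, 11.9 and 11.4 normalized counts. The *nova-1* counts were 10, 0, 2, 0 and 4, or 8.18, 0, 1.78, 0 and 4.37 normalized counts. *elf-1* was thus seen in every wild-type library and in 3 of 5 mutant libraries.

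A total of 4 of the 5 mutant libraries were below every wild-type library, and the groups overlapped through mutant replicate 1. In mutant replicates 2 and 4, with 8514 and 8923 counts in all, a count of 0 allows up to 3 counts, or 2.99 and 3.13 normalized counts. Both limits lie below the normalized count of the lowest wild-type library, 5.83. That value rests on 5 counts and is given without its own counting error. These limits cover counting error only.

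The mean normalized count of *elf-1* was 13.5 ± 9.82 in wild-type and 2.87 ± 3.47 in *nova-1* mutants (SD, n = 5 each), 4.72-fold higher in wild-type. The log2FC was -2.15 with a standard error of 0.646. Summed over the libraries, *elf-1* had 68 counts in wild-type and 16 in mutants, so the size of the difference is known less well than that of *lin-1*, with 111 and 282 counts.

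A single library of each genotype set much of that size. Wild-type replicate 1 was 3.29 times the mean of the other 4 wild-type libraries. Without it the wild-type mean was 9.28 ± 2.90 (SD, n = 4), 3.24-fold above the mutants, and the log2FC was -1.58. Without mutant replicate 1, which held most of the mutant counts, the log2FC was -3.16. The variance of the raw wild-type counts was 9.95 times their mean with replicate 1 and 0.824 times without it. All other wild-type values lay between 5.83 and 11.9 normalized counts. The part of that library in the *elf-1* difference beyond these values was not tested.

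**Figure D2:**
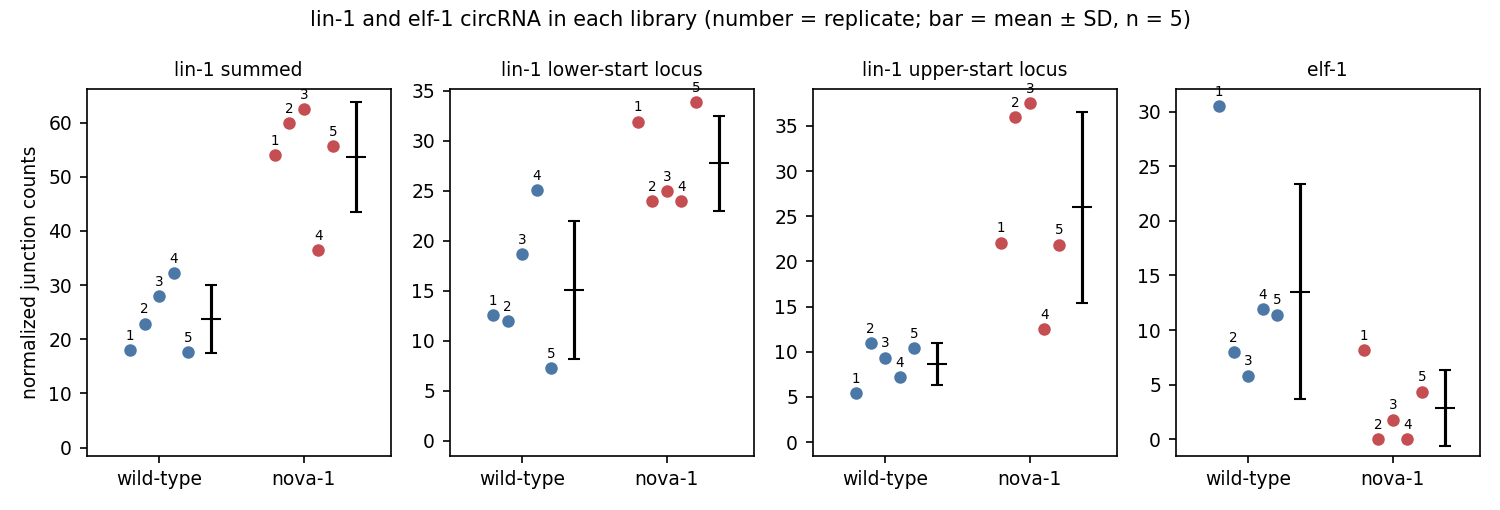
Normalized BSJ counts (y axis) of *lin-1* summed, the lower-start and the upper-start *lin-1* locus and *elf-1* in 5 wild-type (blue) and 5 *nova-1* (red) libraries, with points numbered by replicate and bars at the mean ± SD. The genotypes are apart for *lin-1* summed and the upper-start locus, whereas *elf-1* runs the other way, from 13.5 to 2.87 on average, with wild-type replicate 1 at 30.5 far above the rest.

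Because the members differed in opposite directions, the ratio of *lin-1* to *elf-1* counts within a library separated the genotypes without any scaling. The ratio was 0.588, 2.88, 4.80, 2.70 and 1.55 in wild-type replicates 1 to 5. In mutant replicates 1, 3 and 5 it was 6.60, 35.0 and 12.8, and in replicates 2 and 4, where *elf-1* had no counts, it was at least 20 and at least 11.7 with 3 *elf-1* counts taken as the limit. The lowest mutant ratio was above the highest wild-type ratio. Both genes were chosen with their opposite differences known, so this separation restates those differences and adds no test.

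Pooled over libraries, *lin-1* had 1.63 times the counts of *elf-1* in wild-type and 17.6 times in mutants. *elf-1* made up 38.0% of the counts of both genes in wild-type and 5.37% in mutants. These pooled values depend on replicate 1 of each genotype. Without wild-type replicate 1 the wild-type ratio was 2.68 and the *elf-1* share 27.2%, and without mutant replicate 1 the mutant ratio was 36.0 and the share 2.70%. The mean log2 ratio, with 0.5 added to both counts, was 0.97 ± 1.11 in wild-type and 4.81 ± 1.77 in mutants (SD, n = 5 each), a difference of 3.84. Wild-type replicate 1 was the only library with more *elf-1* than *lin-1* counts, and without it the difference was 3.41.

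**Figure D3:**
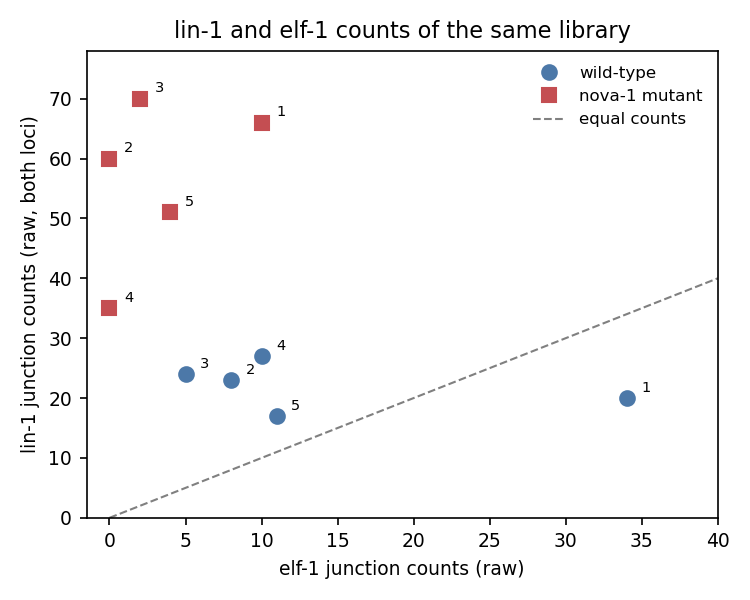
Raw BSJ counts of *lin-1* (y axis, both loci) against *elf-1* (x axis) in each library, with wild-type as blue circles, *nova-1* mutants as red squares, replicate numbers beside the points and equal counts as a dashed line. Mutants lie at the upper left, with 35 to 70 *lin-1* and 0 to 10 *elf-1* counts, and wild-type replicate 1 alone lies below the line.

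The 2 genes ran in opposite directions over the libraries, but not within a genotype. Over all 10 libraries *lin-1* and *elf-1* had a Pearson correlation of -0.65 on log2 normalized counts (Spearman -0.71), and after the mean of each genotype was subtracted it was -0.01. These values were -0.53 and 0.21 without wild-type replicate 1. The correlation over all libraries therefore mainly restates the difference between the genotypes. The 2 *lin-1* loci had a correlation of 0.54 over the 10 libraries (Spearman 0.43) and of -0.22 within genotypes. The points share the scaling of each library, and all correlations here are descriptions.

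The split of *lin-1* counts between its 2 loci was not the same in all libraries. The upper-start locus took 30%, 47.8%, 33.3%, 22.2% and 58.8% of the *lin-1* counts in wild-type replicates 1 to 5. In mutants it took 40.9%, 60.0%, 60.0%, 34.3% and 39.2%. The ranges overlapped over most of their width. With 17 to 70 counts per library the 95% Wilson intervals were wide, from 10.6% to 40.8% in wild-type replicate 4 and from 48.3% to 70.7% in mutant replicate 3.

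The mean share was 38.4% ± 14.7 in wild-type and 46.9% ± 12.2 in mutants (SD, n = 5 each), a difference of 8.44 percentage points that was smaller than either SD. It was 4.39 points without wild-type replicate 4, 5.16 without mutant replicate 2 or mutant replicate 3, and 13.54 without wild-type replicate 5. The pooled shares were 36.9% (41 of 111 counts) and 48.6% (137 of 282 counts). At the other 5 pairs of loci 1 nt apart, the wild-type mean share of the upper-start locus was 47.9% to 54.5%, and the genotypes differed by -5.37 to 11.6 points. The wild-type share of *lin-1* was thus the lowest of the 6 pairs, but its libraries ran up to 58.8% and overlapped with those of the others.

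**Figure D4:**
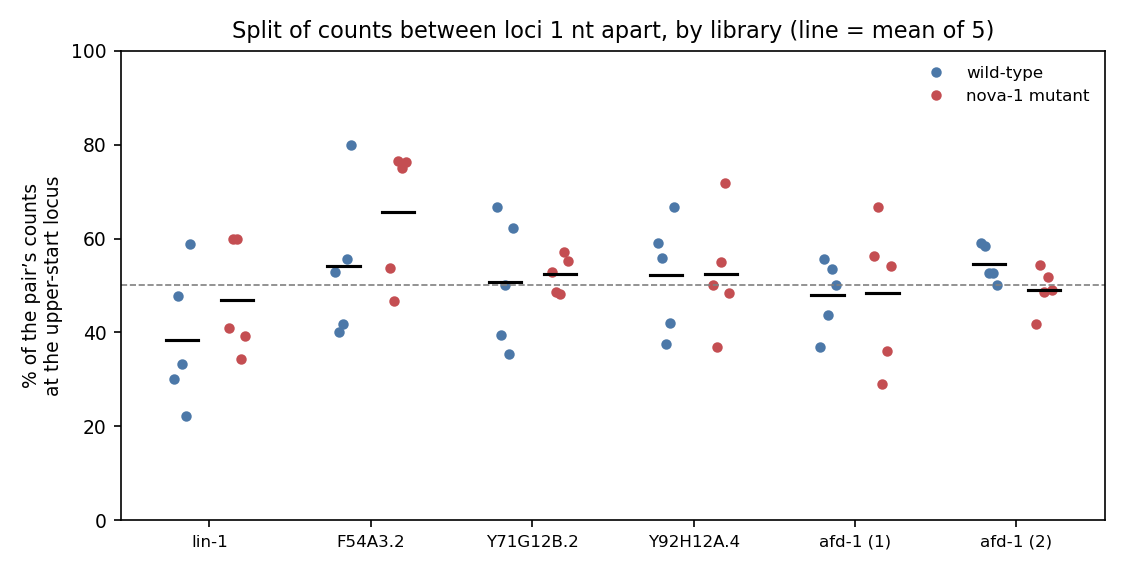
Share of counts at the upper-start locus (y axis, %) for *lin-1* and the other 5 pairs of loci listed 1 nt apart, in 5 wild-type (blue) and 5 *nova-1* (red) libraries, with means as black lines and equal shares as a dashed line. The *lin-1* libraries spread from 22.2% to 60.0% and the genotypes overlap in every pair.

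In relation to the other circRNAs, the members passed from the lower part of the table to its middle or its bottom. By mean normalized count in wild-type, the lower-start *lin-1* locus ranked 104 of 141, *elf-1* 110 and the upper-start *lin-1* locus 126. In mutants the *lin-1* loci ranked 55 and 60, and *elf-1* ranked 138. The median locus had 22.9 normalized counts in both genotypes. By log2FC the upper-start *lin-1* locus ranked 5 from the top, the lower-start locus 21, and *elf-1* was 3 from the bottom. These ranks include wild-type replicate 1. Without it *elf-1* had a wild-type mean of 9.28 and a log2FC of -1.58, and the ranks were not computed again. The log2FC of all loci ran from -7.15 to 2.62 with a median of -0.10.

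Differences were common across the table, which is the background for these values. At an absolute log2FC above 0.5 and *P* under 0.05 in edgeR's quasi-likelihood test, 57 of 141 loci (40.4%) were called, with 30 (21.3%) upregulated and 27 (19.1%) downregulated in *nova-1* mutants. At a Benjamini-Hochberg adjusted *P* under 0.05, 40 loci (28.4%) passed. The libraries of the genotypes did not overlap at 35 loci (24.8%), as at the upper-start *lin-1* locus. All 3 member loci were among the called loci under both criteria, but they were selected with this contrast known, and nothing is read from it.

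**Figure D5:**
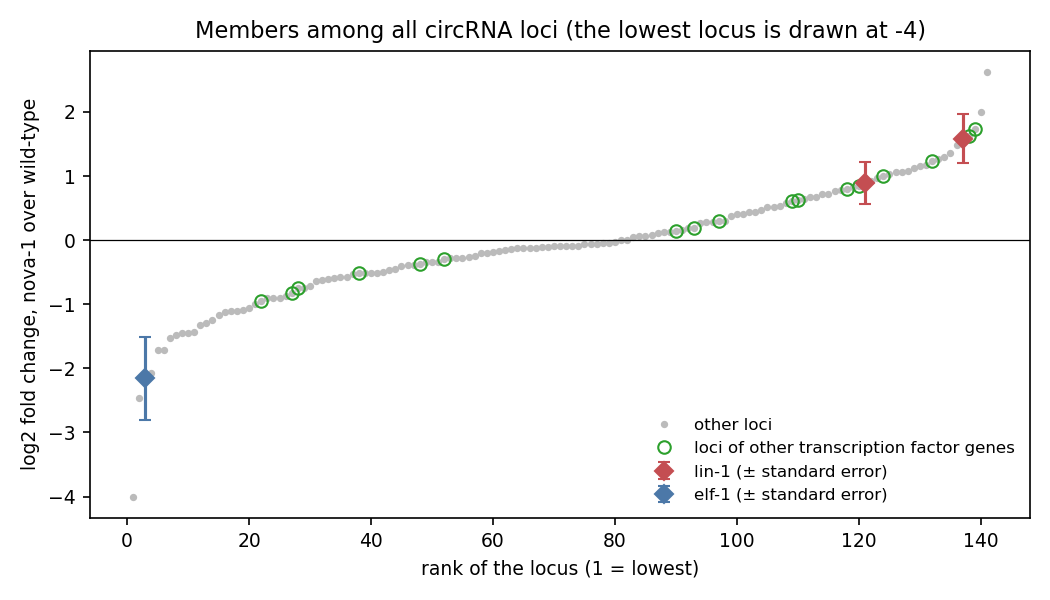
Log2FC of *nova-1* over wild-type (y axis) for all 141 loci in rank order (x axis), with *lin-1* loci as red and *elf-1* as blue diamonds with standard errors, loci of other transcription factor genes as green rings and all others in grey. The *lin-1* loci stand at 0.89 and 1.58 and *elf-1* at -2.15, and the lowest locus, at -7.15, is drawn at the lower edge.

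The replicates of *elf-1* varied more than those of *lin-1*, in wild-type mainly through replicate 1. The coefficient of variation (CV) of the normalized counts of *elf-1* was 72.6% in wild-type and 121% in mutants, against 26.7% and 19.0% for *lin-1* summed. The median over all loci was 37.0% in wild-type and 30.7% in mutants. The *elf-1* CV ranked 16 of 141 in wild-type and 2 in mutants, where its counts were 0 to 10. Without wild-type replicate 1 the wild-type CV was 31.2% for *elf-1*, which then ranked 62, 25.0% for *lin-1* summed and 29.4% for the median locus.

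No other ETS gene had a locus in this table. Of 8 *C. elegans* ETS genes listed, which were *lin-1*, *elf-1*, *ast-1*, *ets-4*, *ets-5*, *ets-7*, *ets-9* and *ets-10*, 2 had a locus. The table holds fewer loci than the study's list of detected circRNAs, and loci below 12 junction reads had been removed by the authors, so a gene with no locus here was not analysed and nothing is read from its absence.

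Of 25 genes of the Ras-MAPK pathway of vulval induction, in which LIN-1 acts, 3 had a locus, and they were *lin-1* and the GTPase-activating proteins *gap-2* and *gap-3*, inhibitors of Ras. Of the 3 loci of *gap-2* and *gap-3*, 1 was upregulated and 2 did not pass the test, beside 28.4% of all loci past the adjusted threshold. *gap-2* ce11_new_1 had 52.4 ± 15.0 normalized counts in wild-type and 324 ± 55.3 in mutants (SD, n = 5 each), with a log2FC of 2.62 (standard error 0.26, edgeR adjusted *P* = 6.02e-09). It was higher in all 5 mutants than in any wild-type library, and it passed in each of the 10 fits that left out 1 library. The other *gap-2* locus had a log2FC of -0.03 and *gap-3* of -0.49, both with a standard error near 0.3.

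The next list, like the ETS and Ras-MAPK lists, was chosen with earlier results of these data known, so its counts are a description. Of 26 genes of sequence-specific transcription factors, 17 had a locus, *lin-1* and *elf-1* among them. The other 15 genes had 17 loci. By log2FC and unadjusted *P*, 6 of these loci were upregulated, 2 were downregulated and 9 did not pass, and by adjusted *P*, 4 were upregulated, 0 were downregulated and 13 did not pass. Over all 141 loci, 40.4% passed the first criterion and 28.4% the second, the latter with 22 loci upregulated and 18 downregulated, so the loci of this list passed about as often as the table as a whole. Their median log2FC was 0.30, against -0.10 over all 141 loci. Without wild-type replicate 1, 3 were upregulated and 1 was downregulated by adjusted *P*, and the median was 0.20. Without mutant replicate 5, 3 were upregulated and 2 were downregulated.

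Of the 4 loci upregulated by adjusted *P* with all libraries, those of *tlp-1* and *zip-2* passed in each of the 10 fits that left out 1 library. *tlp-1*, a zinc-finger factor of male tail tip development, had 15.5 ± 9.47 normalized counts in wild-type and 53.0 ± 5.14 in mutants (SD, n = 5 each), with a log2FC of 1.73 (standard error 0.32, edgeR adjusted *P* = 0.00026). *zip-2*, a bZIP factor of the response to pathogens, was far more abundant, at 127 to 728 normalized counts in wild-type (mean 539, n = 5) and 1127 to 1388 in mutants (mean 1270, n = 5), with a log2FC of 1.24 (standard error 0.36, edgeR adjusted *P* = 0.0111). With all libraries their fold differences were of the size of those of *lin-1*, and every mutant library was above every wild-type library at both. Without wild-type replicate 1 the log2FC was 2.15 at *tlp-1* and 0.99 at *zip-2*.

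*egl-43*, a zinc-finger factor needed in the anchor cell, and *zip-12*, a bZIP factor, passed by a smaller margin. *egl-43* had 3.07 ± 1.81 normalized counts in wild-type and 9.40 ± 3.28 in mutants (SD, n = 5 each), with a log2FC of 1.62 (standard error 0.59, edgeR adjusted *P* = 0.0399). It did not pass in 6 of the 10 fits that left out 1 library (wild-type replicates 1, 4 or 5, mutant replicates 2, 3 or 4), with an adjusted *P* of up to 0.108 without mutant replicate 2. It also did not pass with robust estimation (adjusted *P* = 0.0547) or the replicate block (0.0527), and low-count filtering removed it. *zip-12* cel_circ_new_0002924 had 21.6 ± 8.18 in wild-type and 37.6 ± 8.25 in mutants, with a log2FC of 0.79 (standard error 0.30, edgeR adjusted *P* = 0.0478). It did not pass in 7 of the 10 (wild-type replicates 3 or 4, any mutant replicate), with an adjusted *P* of up to 0.167 without mutant replicate 1. It also did not pass in 6 of 7 other alternatives, with adjusted *P* from 0.0505 (robust estimation) and 0.0518 (replicate block) to 0.0826 (low-count filtering), and 0.0662 in DESeq2. The other *zip-12* locus, cel_circ_new_0002925, was more abundant and did not pass. It had 69.1 ± 12.8 in wild-type and 79.2 ± 15.6 in mutants (SD, n = 5 each). Its log2FC was 0.19 (standard error 0.23, edgeR adjusted *P* = 0.58).

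The circRNAs whose levels over the 10 libraries were most like those of *lin-1* came from Y53C10A.5 (Pearson 0.92), *fars-2*, which encodes a phenylalanyl-tRNA synthetase (0.91), and *pqn-41*, which encodes a glutamine-rich protein (0.89), out of 139 loci compared on log2(normalized count + 1). All 3 were higher in mutants, with log2FC of 1.35, 1.12 and 1.30. Within genotypes their correlation with *lin-1* was 0.57, 0.59 and 0.55, so the shared difference between genotypes made up part of the likeness. Without wild-type replicate 1 the correlations were 0.95, 0.94 and 0.86, and within genotypes 0.76, 0.73 and 0.42. These values belong to *fars-2* ce11_new_12 and *pqn-41* cel_circ_0000334, and other loci of both genes differed. The log2FC was -0.53 at *fars-2* cel_circ_new_0006225. It was 0.92 at *pqn-41* cel_circ_0000335 and -0.16 at *pqn-41* cel_circ_0000908.

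Those most like *elf-1* came from *daf-25*, which encodes an ankyrin-repeat protein of sensory cilia (Pearson 0.93), *eri-5*, which encodes a Tudor-domain protein of endogenous RNAi (0.88), and Y105E8A.25 (0.86), out of 140 loci. All 3 had a negative log2FC, of -0.59, -1.30 and -1.52. Within genotypes their correlation with *elf-1* was 0.88, 0.71 and 0.72. The correlations with *elf-1* were 0.91, 0.85 and 0.82 without wild-type replicate 1, and 0.86, 0.69 and 0.64 within genotypes. The libraries share their scaling, and these loci were chosen as the highest of many. The Y105E8A.25 locus was cel_circ_new_0000503, and the other loci of that gene had log2FC from -0.90 to -0.10.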

How the data were processed

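The authors deposited raw counts of reads at circRNA BSJs, 1 column per library. They had aligned reads to WBcel235/ce11 with HISAT2, realigned unmapped reads with BWA, called loci with CIRI2, removed loci under 12 junction reads, mapped reads to 200-nt junction scaffolds with Bowtie2, removed duplicates with Picard and counted with featureCounts. No count was pooled or normalized by the authors. Duplicate removal without molecular identifiers can lower high counts more than low ones.

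Host genes came from the study's circRNA list, by identical coordinates (112 loci) or by the single entry within 150 nt of the start and 1 nt of the span (26 loci), and 3 loci had none. Exons came from the WBcel235 gene annotation (Ensembl release 115). For each locus separately, both ends were moved together by at most 150 nt. The smallest move that gave exon ends with a span within 1 nt was taken. The 141 loci were fitted in edgeR 4.0.16 (R 4.3.3; quasi-likelihood, TMM, no filter, no covariate), 5 against 5 libraries, with replicates that the study calls independent. *lin-1* summed was taken from a fit of 135 rows in which loci with both ends within 2 nt were added. Genes named are the members, the 3 loci most like each, and list loci past the adjusted threshold. Members and gene lists were chosen with earlier results of these data known. Same-numbered replicates did not deviate together (correlations -0.157 to 0.147), and no 2 libraries were duplicates. Alternatives were RLE scaling, DESeq2 1.42.0, low-count filtering, other library sizes, robust estimation, summing of near loci, a replicate block and leaving out each library. Pooled ratios, CVs and correlations without single libraries were added after the data were seen. The fit code was run on simulated counts with the same dispersion at every locus and no outlying library. That run does not cover an outlying library such as wild-type replicate 1. Sequence motifs around the junctions were not analysed here.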

Additional observations from a re-analysis of the deposited data

Results flagged for a closer look

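In the 12 groups of 5 values examined (*lin-1* summed, both of its loci, *elf-1*, the upper-start share and the ratio of the genes, in each genotype), 1 sample stood apart from the others of its group. *elf-1* in wild-type replicate 1 had 30.52 normalized counts, and the gap to the next wild-type library was 0.753 of the range of the group. A gap above 0.71 of the range was flagged, and by chance 0.6 of 12 groups of normally distributed values would pass that cutoff. The groups examined share counts, and many counts are small, so 0.6 is only a guide. The same library had the highest total count and the lowest rank correlation with the other libraries of its genotype.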

How the results depend on the processing

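The direction of *lin-1*, *elf-1* and their ratio was the same under each alternative run. Leaving out 1 library gave a log2FC of 1.08 to 1.31 for *lin-1* summed, 0.72 to 1.10 for the lower-start and 1.41 to 1.75 for the upper-start locus, and -3.16 to -1.58 for *elf-1*. The other alternatives gave 1.10 to 1.41, 0.79 to 1.12, 1.49 to 1.81 and -2.32 to -1.83. Low-count filtering left 118 loci and removed *elf-1*, so it gave no value there. The difference in log2 ratio ran from 3.31 to 4.38 and that in upper-start share from 4.39 to 13.54 points. Scaling by column totals without TMM moved the median log2FC of all loci from -0.10 to 0.14 and the called loci from 30 up and 27 down to 35 up and 16 down, which the direction of the members survived. With the replicate block 53 loci were called (57 without it), 31 instead of 40 by adjusted *P*, and *lin-1* summed and *elf-1* had a log2FC of 1.18 and -2.32. Alternatives called 47 to 58 loci. The adjusted calls at other transcription factor loci, an alternative chosen after the data were seen, ran from 2 to 5 in either direction. Of these calls, 0 were downregulated in the main fit. With low-count filtering or without wild-type replicate 1 it was 1, and without mutant replicate 5 it was 2. Depth limits *elf-1* most, with 16 counts in all mutants. The comparison of bases at the junctions was not run.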
